A study of Mus musculus with 6 samples.

Results

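Nerve fibroblasts were examined here through 10 identity genes chosen by name, namely the surface genes Pdgfra, Ly6a and Thy1, the transcription factors Prrx1, Twist1, Twist2 and Etv1, and the secreted or membrane-anchored genes Pi16, Mfap5 and Clec3b. Of these 10 genes, 9 were read among the 20173 genes of the count table, and Clec3b was not analysed here. RNA was sequenced from 3 cultures labelled SLIT2f/f (Slit2fl/fl, both alleles floxed, the controls) and 3 labelled SLIT2-knockout (Slit2th, the same floxed alleles deleted by Cre under the Th promoter). By the study's methods, the cells were taken from the sympathetic chains of male mice aged 3 weeks and kept 4 to 5 days in neuronal medium with B27, although the isolation text it refers to names dorsal root neurons. Th drives the Cre, so the deletion is aimed at Th-positive neurons and not at fibroblasts. Whether a library came from 1 mouse or from pooled mice is not given in the sources used here, so p-values measure the spread between these libraries, which may be technical.

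Peripheral nerves and ganglia hold fibroblasts beside neurons and glia. Endoneurial fibroblasts lie among the axons, epineurial fibroblasts build the outer sheath, and perineurial cells form the layer between them. Most of these fibroblasts carry PDGFRα, a receptor tyrosine kinase for platelet-derived growth factor, and make collagen-rich matrix. Prrx1 and the Twist factors are transcription regulators of mesenchyme. Pi16 and Clec3b mark the adventitial or epineurial kind, and Etv1 has been used for the endoneurial kind. Several of the genes are shared with other cells. Ly6a (Sca-1) is also made by endothelial and blood cells, Thy1 by neurons and T cells, and Etv1 by some neurons.

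Total counts ran from 1255939 to 3155406 per library, so that 3 counts, taken as the floor of detection for counting error, equalled 0.951 to 2.39 CPM (counts scaled to the library total). The labelled cell type is neuron, but Th was at 0 counts in all 6 libraries and the 16 neuron genes read summed to 165 to 569 CPM, against 5625 to 20086 CPM for 12 glia genes. Replicate 1 stood apart in both groups, with a Pearson correlation of log2 CPM across genes of 0.842 to 0.869 to the other replicates of its group, and values without it are given beside the results that change with it. Slit2 itself averaged 47.8 ± 6.33 CPM in the controls, against 13.9 ± 2.12 CPM in Slit2th (SD, n = 3 each), with no overlap (log2 fold change -1.78, SE 0.37, edgeR adjusted p = 0.422). In these bulk samples, fewer fibroblasts and less RNA per fibroblast cannot be told apart.

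Some of the genes have close relatives or overlapping genes, which matters for what a read count can show. Of all 50-base windows in the annotated transcripts, Twist1 shared 0 with any other gene, as did Mfap5 and Thy1. Ly6a shared 19.0% of its windows with Ly6c1, Ly6c2, Ly6i and I830127L07Rik, and Twist2 shared 45.7% with its antisense gene Gm29100. Gm29100 held 2 counts over all 6 libraries. The exons of Pdgfra overlap Gm42802 and Gm42803 on the other strand, which were not analysed here, and 4.93% of its windows were shared. Etv1 shared 9.08% of its windows with other genes, Pi16 3.88% and Prrx1 0.171%. Whether the counting used strand is not given in the sources used here.

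The most alike 120 coding bases of 2 pairs are shown with capitals marking each base that differs within the pair, with coding exons from GENCODE M21 (GRCm38). For the paralogs Twist1 and Twist2 the stretch is contiguous in each gene, Twist1 at chr12:33958298-33958417 and Twist2 at chr1:91801809-91801928, both on the plus strand.
Twist1: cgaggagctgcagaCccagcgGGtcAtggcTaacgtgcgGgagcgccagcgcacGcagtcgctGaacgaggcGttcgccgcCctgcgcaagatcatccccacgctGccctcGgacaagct
Twist2: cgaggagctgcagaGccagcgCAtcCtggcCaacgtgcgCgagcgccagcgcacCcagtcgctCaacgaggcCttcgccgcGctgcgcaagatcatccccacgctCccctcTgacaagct
Between Twist1 and Twist2, 108 of the 120 bases (90.0%) were the same and the longest identical run was 23 bases. For Ly6a and Ly6c1, the first 120 coding bases are shown, which are spliced from chr15:74996519-74997604 and chr15:75047420-75048511 on the minus strand.
Ly6a: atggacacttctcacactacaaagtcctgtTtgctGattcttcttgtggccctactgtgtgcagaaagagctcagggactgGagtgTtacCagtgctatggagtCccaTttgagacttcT
Ly6c1: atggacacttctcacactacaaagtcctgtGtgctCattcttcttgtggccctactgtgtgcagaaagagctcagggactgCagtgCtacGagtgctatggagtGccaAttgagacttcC
Here 112 of the 120 bases (93.3%) were the same, with an identical run of 45 bases. Ly6c1 was counted 17, 3 and 0 times in the Slit2fl/fl cultures and 0 times in each Slit2th library, and Ly6c2 held 0 counts.

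Pdgfra was the only gene of the set whose groups did not overlap. Reads numbered 63, 70 and 51 in the Slit2fl/fl cultures (values here and throughout are in the order of replicates 1, 2 and 3), against 79, 105 and 138 in the Slit2th cultures. Scaled by TMM, the levels were 20.2, 45.4 and 29.0 CPM against 69.7, 50.1 and 77.9 CPM. All 3 Slit2th libraries thus stood above all Slit2fl/fl libraries, the closest pair being 45.4 and 50.1 CPM. The means were 31.5 ± 12.8 and 65.9 ± 14.3 CPM (SD, n = 3 each). The log2 fold change was 1.07 (SE 0.42, 95% interval 0.13 to 2.01). The two-sided exact permutation test gave p = 0.10, the smallest that 3 libraries against 3 allow. In the edgeR quasi-likelihood fit the unadjusted p was 0.0296 and the adjusted p over 12152 genes was 0.433, so Pdgfra did not pass. It ranked 831 by p among all genes tested. The gene (ENSMUSG00000029231) is annotated at chr5:75152292-75198215 (GRCm38, plus strand) with 27 merged exons.

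**Figure D1:**
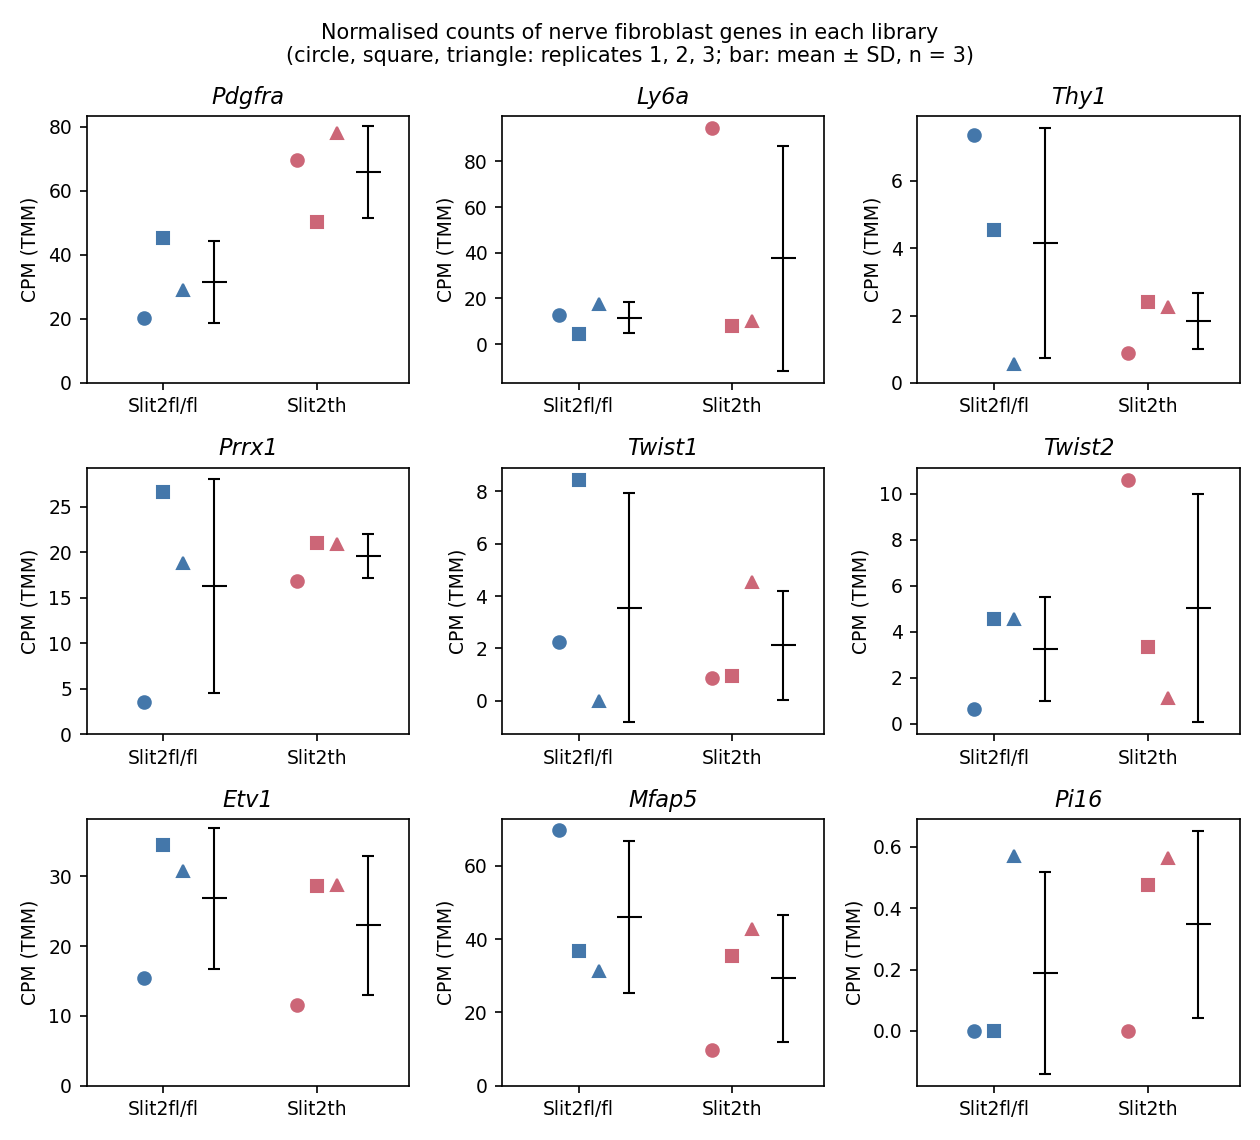
Normalised counts (CPM after TMM, linear axes that differ between panels) of the 9 genes in each library, with the group mean and SD beside the points. Pdgfra is the 1 panel in which all Slit2th points lie above all Slit2fl/fl points. In the Ly6a panel the 94.4 CPM of Slit2th replicate 1 sets the group mean.

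Ly6a, which encodes the surface protein Sca-1 (chr15:74994877-74998031, minus strand), gave the largest fold change of the 8 genes tested and rested on a single library. Its levels were 12.8, 4.54 and 17.6 CPM in the Slit2fl/fl cultures and 94.4, 8.11 and 10.2 CPM in the Slit2th cultures. The last 2 Slit2th libraries lay within the Slit2fl/fl range, and Slit2th replicate 1 held 107 of the 220 Ly6a counts (48.6%). The log2 fold change of 1.64 (SE 0.93, 95% interval -0.46 to 3.75, adjusted p = 0.521 in the edgeR quasi-likelihood fit) became -0.36 without that library. The same library was also the highest for the 12 macrophage genes read, which summed to 667 CPM there, to 126 and 143 CPM in the other Slit2th libraries and to 37.0 to 128 CPM in Slit2fl/fl. Among those 12 genes, Aif1 stood at 182 CPM in Slit2th replicate 1 and at 0 to 0.64 CPM in the other 5 libraries. Lyz2 stood at 285 CPM there and at 17.1 to 79.0 CPM in the others. Not every gene of the list peaked in that library. Adgre1 was at 6.18 CPM there, against 6.2 and 7.34 CPM in the other Slit2th libraries. Fcer1g was at 37.1 CPM there, against 39.1 CPM in Slit2fl/fl replicate 1. The 11 endothelial genes summed to 58.2 CPM in Slit2th replicate 1 and to 42.6 to 131 CPM elsewhere. The part of other cells in the Ly6a level was not tested.

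Thy1, a GPI-anchored protein of fibroblasts, neurons and T cells, was low throughout. Its counts were 23, 7 and 1 in Slit2fl/fl and 1, 5 and 4 in the Slit2th cultures, so Slit2fl/fl replicate 1 alone held 56.1% of them. The groups overlapped, with 7.36, 4.54 and 0.569 CPM against 0.883, 2.39 and 2.26 CPM. The log2 fold change was -1.13 (SE 0.89, 95% interval -3.14 to 0.87, adjusted p = 0.619 in the edgeR quasi-likelihood fit), and it was -0.10 once replicate 1 of both groups was left out. Slit2fl/fl replicate 1 was also the highest for the neuron genes, at 569 CPM against 165 to 180 CPM in the other 5 libraries; their part in the Thy1 level was not tested. T cell genes gave 0.0 to 5.3 CPM in sum.

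Among the transcription factors, Prrx1 and Etv1 were detected in every library. Prrx1, a homeobox gene of limb and craniofacial mesenchyme, stood at 3.52, 26.6 and 18.8 CPM in the Slit2fl/fl cultures and at 16.8, 21 and 20.9 CPM in Slit2th. Slit2fl/fl replicate 1 was far below the other 5 libraries, which ran from 16.8 to 26.6 CPM in both groups. The log2 fold change of 0.29 (SE 0.64, 95% interval -1.15 to 1.74, adjusted p = 0.863 in the edgeR quasi-likelihood fit) became -0.21 without Slit2fl/fl replicate 1.

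Etv1, an ETS-family transcription factor, was at 15.4, 34.4 and 30.7 CPM in Slit2fl/fl, against 11.5, 28.6 and 28.8 CPM in Slit2th. Replicate 1 was the lowest library in each group, and the other 4 libraries spanned only 28.6 to 34.4 CPM, a ratio of 1.2. The log2 fold change was -0.20 (SE 0.49, 95% interval -1.32 to 0.92, adjusted p = 0.879 in the edgeR quasi-likelihood fit).

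The basic helix-loop-helix factors Twist1 and Twist2 were near the floor of detection. Twist1 had 7, 13 and 0 counts in Slit2fl/fl and 1, 2 and 8 in Slit2th. Twist2 had 2, 7 and 8 counts in Slit2fl/fl and 12, 7 and 2 in Slit2th. More than 3 counts were reached in 3 libraries for Twist1 and in 4 for Twist2, and the groups overlapped for both. The log2 fold changes of -0.64 (95% interval -3.30 to 2.01) and 0.62 (95% interval -1.56 to 2.80) had adjusted p-values of 0.835 and 0.807 in the edgeR quasi-likelihood fit. Twist1 became 0.74 without Slit2fl/fl replicate 2, and Twist2 became -0.42 without Slit2th replicate 1. Intervals this wide include differences of several fold in either direction.

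Of the secreted or anchored genes, Mfap5 and Pi16 were at opposite ends of the range. Mfap5, a glycoprotein of elastic microfibrils (chr6:122505845-122529290, plus strand), had 218, 57 and 55 counts in Slit2fl/fl and 11, 74 and 76 in the Slit2th cultures. These were 69.8, 36.9 and 31.3 CPM against 9.71, 35.3 and 42.9 CPM, so that the highest and the lowest value were the replicate 1 libraries of the 2 groups. The other 4 libraries lay between 31.3 and 42.9 CPM, a ratio of 1.37. The log2 fold change of -0.64 (SE 0.56, 95% interval -1.91 to 0.63, adjusted p = 0.650 in the edgeR quasi-likelihood fit) became 0.18 without replicate 1 of both groups.

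Pi16, a membrane-anchored peptidase inhibitor that marks adventitial fibroblasts, had 0, 0 and 1 counts in the controls against 0, 1 and 1 in Slit2th. All 6 libraries were under the floor of 3 counts, so no fold change is given and the gene was not tested. Some other listed genes, chosen after their values were seen for being low, were near 0 as well. Dpp4, a surface peptidase from the list of fibroblast surface genes, had 0 counts in every library. From the epineurial and adventitial list, Tnxb, a tenascin of connective tissue, had 0 counts in every library, and Dpt (dermatopontin) held 6 counts in total. The epineurial and adventitial list as a whole was not absent, since 9 of its 14 genes read had enough counts to be tested. Efhd1, a calcium-binding protein, stood at 164 to 339 CPM, the guidance ligand Sema3c at 28.8 to 174 CPM, Pcolce2, an enhancer of procollagen processing, at 55.3 to 201 CPM, and Fbn1, which encodes the microfibril protein fibrillin-1, at 34.9 to 82.1 CPM. In the same libraries Col1a2, a chain of type I collagen, stood at 1450 to 2570 CPM, and Dcn, the proteoglycan decorin, at 281 to 862 CPM.

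Per kilobase of merged exon, the level of the members fell in the order Mfap5, Ly6a, Pdgfra, Etv1, Prrx1, Twist2, Twist1, Thy1 and Pi16, by the median over the 6 libraries. The medians were 10.1 CPM per kb for Mfap5 and 9.53 CPM per kb for Ly6a, whose ranges over the libraries (2.70 to 19.5 and 3.77 to 78.4 CPM per kb) overlapped, so these neighbours were not ordered beyond their spread. Pdgfra had a median of 4.76 CPM per kb, with a range of 2.01 to 7.77. Below it, Etv1 at 2.16 and Prrx1 at 1.79 CPM per kb had overlapping ranges, as did Twist2, Twist1 and Thy1, at 1.24, 0.981 and 0.775 CPM per kb. Pdgfra overlapped both neighbours in range, with up to 2.58 CPM per kb for Etv1. Pi16 had the lowest median, 0.0375 CPM per kb, and at most 0.0893 CPM per kb in any library.

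The members were split in direction, and no test of the set was made. Among the 8 genes tested, the log2 fold change was above 0 for 4 and below 0 for 4, and its median was 0.05, beside -0.05 over all 12152 genes tested. That median ranged from -0.29 without Slit2th replicate 1 to 0.80 without Slit2fl/fl replicate 2. None of the 8 passed an adjusted p under 0.05 in the edgeR quasi-likelihood fit, where 0.0% of all genes did (0 genes, with 1309 at an unadjusted p under 0.05, 31 after adjustment by DESeq2 and 0 by limma voom). At an unadjusted p under 0.05, 1 of the 8 (12.5%, Pdgfra) was higher in Slit2th and 0 were lower, against 3.99% of all genes higher and 6.78% lower. Groups that did not overlap were found for 1 of 8 genes (12.5%) higher and 0 lower, against 8.74% and 9.72% of all genes, a share near the background.

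**Figure D2:**
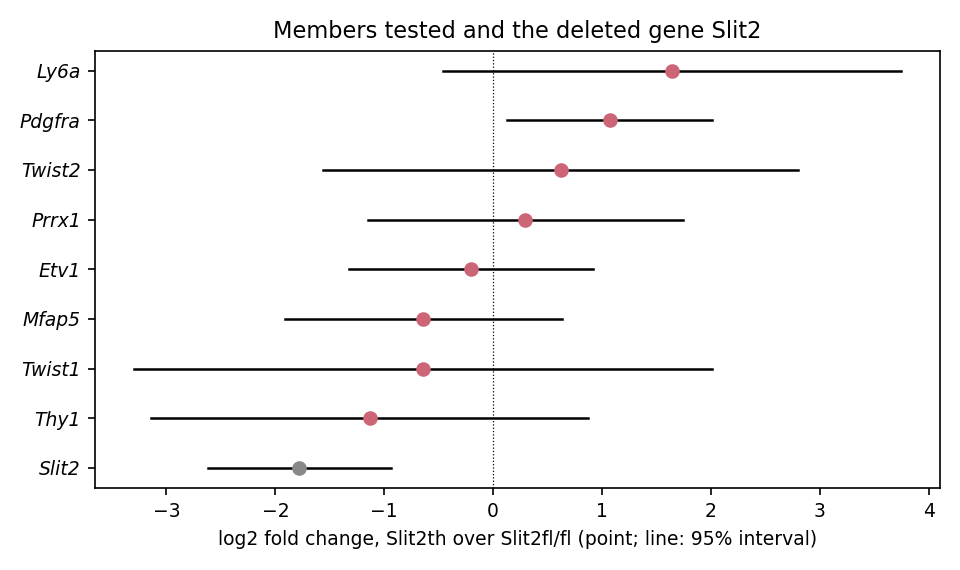
Log2 fold change of Slit2th over Slit2fl/fl (horizontal axis) for the 8 genes tested and for Slit2 (grey), with lines for the 95% interval of edgeR's quasi-likelihood fit. The interval of Pdgfra, 0.13 to 2.01, lies above 0 and the intervals of the other 7 genes include 0. These intervals are not adjusted for the number of genes.

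Pdgfra kept its direction whichever library was left out. With each library left out in turn, the log2 fold change of Pdgfra was 0.83 to 1.43, and it was 0.77 once replicate 1 of both groups was left out (edgeR quasi-likelihood, unadjusted p = 0.0273, adjusted p = 0.218). Its unadjusted p was above 0.05 when Slit2fl/fl replicate 1, Slit2fl/fl replicate 3 or Slit2th replicate 3 was left out (0.0587, 0.0927 and 0.101 in the same edgeR fit). Without replicate 1 of both groups, 0 of the 8 genes passed after adjustment, against 3.29% of the 11473 genes tested, and 1 of 8 was higher at an unadjusted p under 0.05, against 7.12% of all genes. The median of the 8 was then -0.16.

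**Figure D3:**
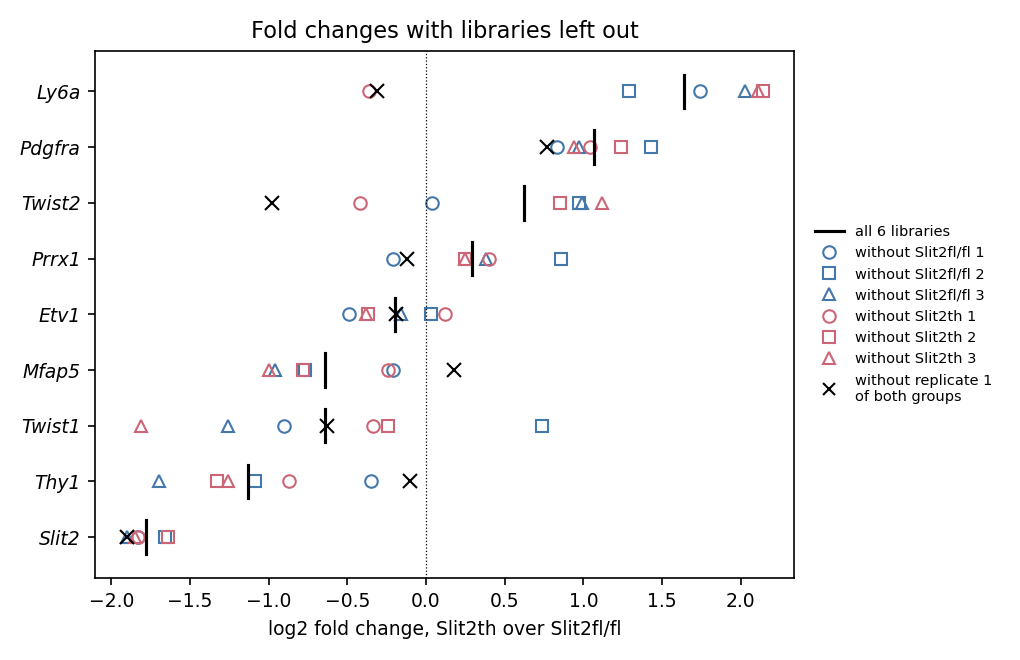
Log2 fold change of Slit2th over Slit2fl/fl (horizontal axis) with all 6 libraries (black bar), with each library left out (open symbols, blue for a Slit2fl/fl and red for a Slit2th library) and without replicate 1 of both groups (cross). Pdgfra stays between 0.77 and 1.43, while Ly6a moves from 1.64 to -0.36 without Slit2th replicate 1.

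To set the members against the collagen-making cells of each library, their CPM were divided by the summed CPM of 12 fibroblast matrix genes (Col1a1, Col1a2, Col3a1, Dcn and others), an addition made after the data were examined. These 12 genes summed to 2758, 3592 and 2806 CPM in Slit2fl/fl, against 3464, 4182 and 4700 CPM in Slit2th. Per 1000 CPM of matrix genes, Pdgfra stood at 7.31, 12.6 and 10.3 in Slit2fl/fl and at 20.1, 12 and 16.6 in Slit2th. The groups then overlapped, at 10.1 ± 2.67 against 16.2 ± 4.08 (SD, n = 3 each). Mfap5 stood at 25.3, 10.3 and 11.1 in Slit2fl/fl and at 2.80, 8.44 and 9.13 in Slit2th, where all 3 values were below those of Slit2fl/fl, with the widest gap between the replicate 1 libraries. The divisor itself was higher on average in Slit2th, which tends to lower the values there. It is the same for every gene of a library but differs between libraries, and 3464 CPM in Slit2th replicate 1 was below 3592 CPM in Slit2fl/fl replicate 2. On this scale the groups did not overlap for 20.3% of all genes tested as lower and for 2.72% as higher, so the separation of Mfap5 and the overlap of Pdgfra are a description of the scale as much as of the genes. Prrx1 and Etv1 overlapped between the groups on this scale. The matrix genes include Lum, which had the largest fold change among them, and without it the overlap of Pdgfra and the separation of Mfap5 were the same.

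**Figure D4:**
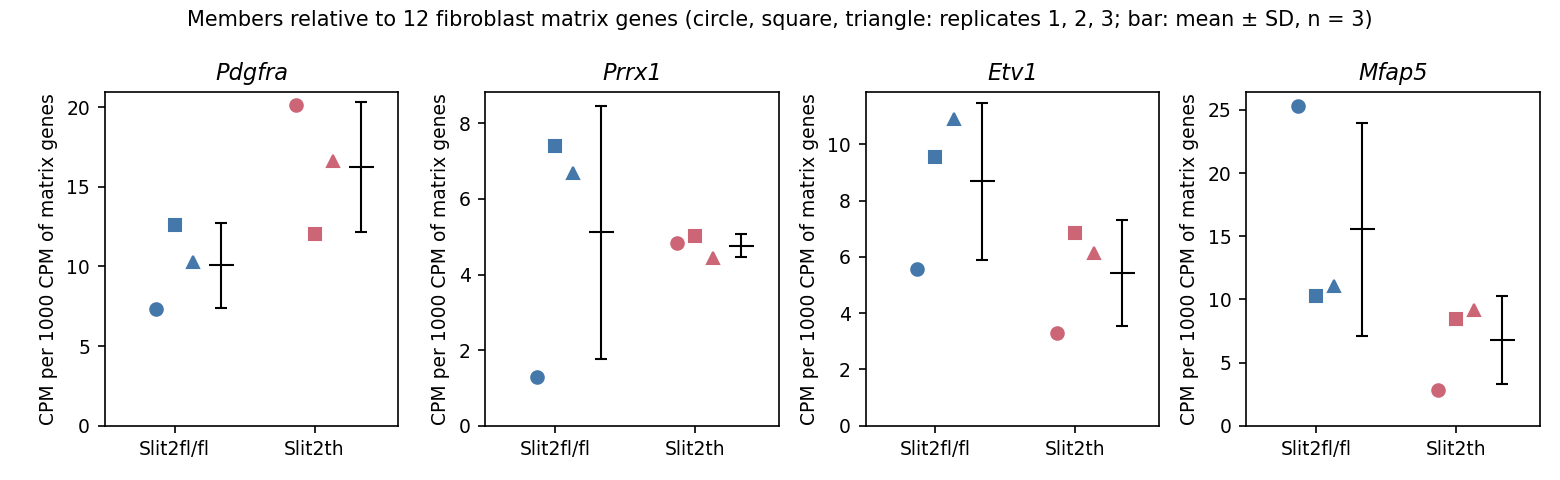
CPM of 4 members per 1000 summed CPM of 12 fibroblast matrix genes in each library (linear axes from 0), with the group mean and SD. Pdgfra at 12.6 in Slit2fl/fl replicate 2 exceeds the 12 of Slit2th replicate 2, and all Mfap5 values in Slit2th are below 10.3, the lowest in Slit2fl/fl.

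Other genes of nerve fibroblasts were read from lists written for this purpose, with no test of a list. Of 17 further mesenchymal transcription factors tested, 2 were higher and 1 was lower at an unadjusted p under 0.05 (11.8% and 5.88%, against 3.99% and 6.78% of all genes), with a median log2 fold change of 0.60 and 14 above 0. Foxc1, a forkhead factor of mesenchyme, was read at 3.84, 20.1 and 9.67 CPM in Slit2fl/fl cultures, below the 30.0, 41.0 and 33.9 CPM of the Slit2th cultures, a log2 fold change of 1.68 (SE 0.58, adjusted p = 0.422 in the edgeR quasi-likelihood fit). Sox9, which endoneurial fibroblasts share with glia, had a log2 fold change of 1.26 (SE 0.55) and overlapping groups. Etv5, an ETS factor related to Etv1, was at 13.4, 3.89 and 17.1 CPM in Slit2fl/fl, against 1.77, 3.82 and 1.69 CPM in Slit2th, a log2 fold change of -2.18 (SE 0.70, adjusted p = 0.422 by the same edgeR test). These are low counts, and the groups nearly met at 3.89 and 3.82 CPM. Sox9 and Zeb2 are also made by glia, and the 12 glia genes summed to 5625 to 11671 CPM in Slit2fl/fl, against 13304 to 20086 CPM in Slit2th; their part in these values was not tested.

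Of 8 other fibroblast surface genes tested, 0 passed an unadjusted p under 0.05, against 3.99% of all genes higher and 6.78% lower. Without replicate 1 of both groups 2 did, Vcam1 higher and Pdgfrb lower, where 7.12% of all genes were higher and 10.3% lower. The median of the 8 was 0.66 on the log2 scale. Pdgfrb, the other PDGF receptor and a pericyte gene as well, was at 74.6, 36.3 and 49.5 CPM in Slit2fl/fl, against at 184, 24.8 and 29.3 CPM in Slit2th. Like Ly6a, it was highest in Slit2th replicate 1, and its log2 fold change of 0.56 became -0.68 without replicate 1 of both groups. Fap, a protease of activated fibroblasts, and the adhesion molecule Vcam1 did not overlap between the groups (log2 fold changes of 1.21 and 1.22, adjusted p = 0.465 and 0.499 in the edgeR quasi-likelihood fit). These were 25.0% of the 8, against 8.74% of all genes higher without overlap, and 0.0% were lower, against 9.72%. Fap had 10, 7 and 17 counts in Slit2fl/fl and 17, 25 and 23 in Slit2th. Vcam1 was at 6.72, 1.94 and 5.69 CPM in Slit2fl/fl, against 7.06, 19.6 and 7.34 CPM in Slit2th. Both had low counts, and the Vcam1 groups nearly met at 6.72 and 7.06 CPM.

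The lists for the layers of the nerve held genes that differed in either direction. Of 9 endoneurial genes tested, 2 were higher at an unadjusted p under 0.05 (22.2%, Sox9 and Col15a1, against 3.99% of all genes) and 0 were lower. Col15a1, a basement membrane collagen, stood at 21.5, 16.2 and 11.4 CPM in Slit2fl/fl, against 28.2, 50.1 and 57.0 CPM in Slit2th, a log2 fold change of 1.46 (SE 0.44, adjusted p = 0.422 in the edgeR quasi-likelihood fit). It was 1.94 without replicate 1 of both groups, with an adjusted p of 0.00522 in that edgeR fit. Apod, the lipid carrier apolipoprotein D and the most abundant gene of the list, differed the other way, at 10600, 3590 and 4530 CPM in Slit2fl/fl, against 3850, 2830 and 2720 CPM in Slit2th (log2 fold change -0.99, SE 0.47, unadjusted p = 0.0615 in the edgeR fit, -0.56 without replicate 1 of both groups). In that smaller fit 3 endoneurial genes were higher and 1, Apod, was lower, where 7.12% of all genes were higher and 10.3% lower.

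Of 9 epineurial and adventitial genes tested, 0 passed an unadjusted p under 0.05 in either direction. Without replicate 1 of both groups, 2 were lower, Sema3c and Igfbp6, where 10.3% of all genes were lower. Igfbp6 then passed after adjustment, as did 3.29% of all genes (log2 fold change -1.88, SE 0.39, adjusted p = 0.0183 in the edgeR fit). Igfbp6, a binding protein of insulin-like growth factors named after its values were seen, was at 35.5, 29.8 and 33 CPM in Slit2fl/fl, against 67.1, 7.16 and 10.2 CPM in Slit2th. Its highest value was thus in Slit2th replicate 1, as for Ly6a.

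Of 8 perineurial genes tested, 1 was lower at an unadjusted p under 0.05 (12.5%, against 6.78% of all genes) and 0 were higher, while the median log2 fold change was 0.34 with 5 of 8 above 0. The lower gene was Slc2a1, the glucose transporter GLUT1, with 26.9, 23.3 and 22.7 CPM in Slit2fl/fl, against 13.2, 9.54 and 11.3 CPM in Slit2th (log2 fold change -1.11, SE 0.39, adjusted p = 0.422 in the edgeR fit). Tjp1, the tight junction protein ZO-1, did not overlap in the other direction, at 43.9, 75.8 and 59.1 CPM in Slit2fl/fl, against 87.4, 104 and 89.2 CPM in Slit2th (log2 fold change 0.65, adjusted p = 0.503 in the edgeR fit). The tight junction gene Cldn1 had a log2 fold change of 1.09, with overlapping groups.

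Of 11 fibroblast matrix genes tested, 2 were higher at an unadjusted p under 0.05 (18.2%, Lum and Col3a1, against 3.99% of all genes). Serping1, the complement C1 inhibitor, was the 1 lower gene (9.09%, against 6.78% of all genes). Without replicate 1 of both groups, 5 were higher and 1 was lower, where 7.12% of all genes were higher and 10.3% lower. Lum and Serping1 then passed after adjustment (adjusted p = 0.000985 and 0.032 in the edgeR fit), as did 3.29% of all genes. Their log2 fold changes were 1.81 and -1.50.

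Cells that share some of these markers were also present. Of 10 proliferation genes tested, 4 were lower at an unadjusted p under 0.05 (40.0%, against 6.78% of all genes) and 0 were higher, with a median log2 fold change of -1.03, and the 10 summed to 304 to 393 CPM in Slit2fl/fl, against 129 to 239 CPM in Slit2th. Without replicate 1 of both groups 7 were lower, where 10.3% of all genes were. Ccnb1, a mitotic cyclin, then passed after adjustment, as did 3.29% of all genes (log2 fold change -1.31, adjusted p = 0.0457 in the edgeR fit). Of the 10 macrophage genes tested, 4 were higher at an unadjusted p under 0.05 (40.0%, against 3.99% of all genes), with a median of 1.2 on the log2 scale. The 11 pericyte and smooth muscle genes summed to 161 to 304 CPM and 309 to 421 CPM in the 2 groups, of which Mcam, also a glial and endothelial gene, made up 121 to 369 CPM. Of 7 such genes tested, 0 passed in either direction, with a median log2 fold change of -0.04, which was 0.84 over 6 genes without replicate 1 of both groups. Of 5 endothelial genes tested, 1 was lower (20.0%, against 6.78% of all genes) and 0 were higher. Of 3 neuron genes 0 passed. The median log2 fold changes of these 2 lists were -0.29 and -0.70. Of 11 glia genes tested, 0 were higher and 1 was lower (9.09%, against 6.78% of all genes), with a median of -0.12. The lower gene was Mbp, a myelin protein gene at 1050 CPM in Slit2fl/fl replicate 1 and 88.3 to 138 CPM elsewhere. Without replicate 1 of both groups Mbp had a log2 fold change of 0.22. In that fit 3 glia genes were higher and 1 was lower (median 0.27), where 7.12% of all genes were higher and 10.3% lower. Cdh19, a cadherin of Schwann cells, and S100b, a calcium-binding protein of glia, passed after adjustment there, as did 3.29% of all genes. Their directions were opposite (log2 fold changes of 0.70 and -1.22, adjusted p = 0.0355 and 0.00188 in the edgeR fit). None of the T cell genes had enough counts to be tested. The part of these cells in the levels of Pdgfra and the other members was not tested.

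By the smallest Euclidean distance of log2 CPM centred over the 6 libraries, the tested genes most like Pdgfra were Qpct, Cmpk1 and Nxt2, at distances of 0.354, 0.373 and 0.389, where the median distance of all tested genes was 2.14. Qpct, the gene of glutaminyl-peptide cyclotransferase, had 2.88, 8.43 and 5.12 CPM in Slit2fl/fl, against 13.2, 11.9 and 14.1 CPM in Slit2th. The same measure for Pi16 gave Zkscan1, Mfsd6 and Orc5, at distances of 0.230, 0.237 and 0.244 against a median of 1.53. Pi16 was at 0 or 1 count, 3 counts in total, so these neighbours only match where single reads fell.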

How the data were processed

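RNA-Seq was performed on 6 libraries, 3 per genotype. The authors aligned reads to mm10 with HISAT2 by the paper's methods, while the submitters' processing notes name GRCm39. The deposited table holds raw read counts per gene, not normalized; the counting program, strand setting and annotation release are not given in the sources used here. No coordinates come with the table, and those printed were joined by gene identifier from GENCODE M21 (GRCm38; 20159 of 20173 identifiers found).

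Groups were compared with edgeR 4.0.16 under R 4.3.3 (genes reaching 1 CPM in 3 or more libraries, TMM, quasi-likelihood test with no covariate, Benjamini-Hochberg adjustment over all genes tested), with DESeq2 1.42.0, limma 3.58.1, other normalizations and filters, the replicate number as a block and left-out libraries as alternatives. CPM of members use the TMM-scaled library totals, and the permutation tests use their log2 with a prior count of 2. Single genes were compared by two-sided exact permutation tests, which cannot go below 0.10. Intervals are those of the quasi-likelihood fit. The biological coefficient of variation was 50.4%. The fits were tested on simulated data. The members and gene lists were chosen with earlier results of these data known. Named genes were all members, Slit2, Th, per list at most 3 genes by level and 3 by p, and the 3 genes nearest to Pdgfra and to Pi16. Dpp4, Tnxb, Dpt and Igfbp6 were named after their values were seen, and Gm29100, Gm42802, Gm42803 and the Ly6 relatives for their shared sequence or overlap. Clec3b and some other listed genes were not analysed here.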

Additional observations from a re-analysis of the deposited data

How the results depend on the processing

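The count of genes past the adjusted threshold was 0 with all 6 libraries, 31 by DESeq2, 7 with no filter beyond 1 count, and 377 without replicate 1 of both groups; it ranged from 0 to 1 with a single library left out, and was 0 at an adjusted p under 0.10. Of the members, 1 had an unadjusted p under 0.05, against 2 with no filter beyond 1 count and 0 (without Slit2fl/fl replicate 1) to 2 (without Slit2th replicate 2) with a single library left out. The median log2 fold change of the members, 0.05, ranged from -0.29 (without Slit2th replicate 1) to 0.80 (without Slit2fl/fl replicate 2) with a single library left out. With the replicate block, 0 genes passed, Pdgfra had a log2 fold change of 1.12 and the median was 0.1; same-numbered libraries deviated together with correlations of 0.292, 0.244 and 0.0808, Slit2fl/fl replicate 2 deviated more with Slit2th replicate 3 (0.255) than with its own number, the numbers were not taken to pair the libraries, and the block changed no call. Signs turned for Twist1 (0.13 by limma voom, -1.81 to 0.74 with a single library left out), Prrx1 (-0.12 without replicate 1 of both groups, -0.21 to 0.86 with a single library left out), Twist2 (-0.98 and -0.42 to 1.12), Ly6a (-0.31 and -0.36 to 2.14), Mfap5 (0.18 in the former) and Etv1 (-0.49 to 0.12 in the latter); the cause was not tested. Pdgfra stayed above 0 and Thy1 below 0 in every alternative run, and no member passed after adjustment in any. With 31 to 41 counts over all libraries for Twist1, Twist2 and Thy1, depth limits these genes.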
